A study of Mus musculus with 26 samples.

Results

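The 10 genes described here (Arid5b, Isl1, Rhbdf1, Grb14, Rassf4, Asgr1, Dnm3, Lipt2, Rnaset2b and Defb8) were picked from the 24450 gene rows of a mouse oocyte count table. They were picked for their counts in oocytes labelled as a Tet3 LCD HD mutant (LCD, low-complexity domain). These differed from the counts in oocytes lacking the LCD or in control oocytes. Those values chose the genes, so the levels in the HD mutant are described below without a test. Tests are given for comparisons that hold no HD mutant library.

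Each library was made from RNA of 10 pooled oocytes at the germinal vesicle (GV) stage, when growth is complete and meiosis has not yet resumed. The groups were 5 libraries of genotype Tet3 LCD HD Mutf/f with Zp3-Cre (HD mutant), 7 of Tet3 LCDf/f with Zp3-Cre (LCD KO), and 2 of Dnmt3af/f and Tet3 LCDf/f with Zp3-Cre (DKO). A further 2 were Dnmt3af/f with Zp3-Cre (Dnmt3a KO), 2 were labelled Tet3f/f with Zp3-Cre (labelled Tet3 KO), and 6 were Tet3 LCDf/f with no Cre in the label (WT). HD is not defined in the sources used here, and the design text of the series names that group as an LCD KO with an HD mutation. Zp3-Cre is active in growing oocytes, so the alleles are recombined there and not in the surrounding somatic cells. The age and strain of the mice are not given in the sources used here. By the labels, batch 1 held LCD KO 1 to 3 and WT 1 to 3. HD mutant 1 to 3, LCD KO 4 and 5 and WT 4 were in batch 2. LCD KO 6 and 7, WT 5 and 6 and all DKO, Dnmt3a KO and labelled Tet3 KO libraries were in batch 3. No batch is stated for HD mutant 4 and 5, so HD mutant 1 to 3 and HD mutant 4 and 5 are kept apart, and HD mutant 1 is also given on its own.

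Tet3 is a dioxygenase that oxidises 5-methylcytosine in DNA, and Dnmt3a is the main enzyme that lays down DNA methylation in the growing oocyte. The low-complexity domain is a long insert within the catalytic part of Tet3. The 10 genes do not form 1 pathway: Arid5b and Isl1 bind DNA, Rhbdf1, Grb14, Rassf4 and Asgr1 act in signalling or at the cell surface, Dnm3 works in membrane traffic, Lipt2 and Rnaset2b are enzymes, and Defb8 is a secreted peptide.

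The promoters of 4 of the genes are shown because the study is about DNA methylation and these genes span the range of CpG content found among them. They are Arid5b and Isl1, whose levels were low in all 5 HD mutant libraries, Defb8, which had no count in HD mutant 1 to 3, and Grb14, which was high in the HD mutant. Each sequence runs 5′ to 3′ on the strand of the gene, from 250 bases before to 50 bases after the start in RefSeq (build GRCm38.p6), and capitals mark each CG dinucleotide, which reads the same on both strands. The positions are chr10:68278677-68278976 (minus strand) for Arid5b, chr13:116309639-116309938 (minus strand) for Isl1, chr8:19447557-19447856 (minus strand) for Defb8 and chr2:65022717-65023016 (minus strand) for Grb14.
Arid5b: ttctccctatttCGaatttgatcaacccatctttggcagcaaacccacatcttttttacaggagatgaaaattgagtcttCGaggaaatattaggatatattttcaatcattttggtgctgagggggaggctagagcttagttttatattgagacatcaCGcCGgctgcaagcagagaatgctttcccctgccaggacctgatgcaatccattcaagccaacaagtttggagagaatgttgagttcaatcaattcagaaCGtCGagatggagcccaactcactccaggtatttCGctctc
Isl1: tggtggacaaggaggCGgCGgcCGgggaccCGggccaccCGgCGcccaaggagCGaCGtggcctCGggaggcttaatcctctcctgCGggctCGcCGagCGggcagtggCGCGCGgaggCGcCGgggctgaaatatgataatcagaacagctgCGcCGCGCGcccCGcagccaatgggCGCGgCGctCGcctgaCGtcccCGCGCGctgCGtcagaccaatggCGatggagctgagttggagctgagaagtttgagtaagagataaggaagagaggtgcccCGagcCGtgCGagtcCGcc
Defb8: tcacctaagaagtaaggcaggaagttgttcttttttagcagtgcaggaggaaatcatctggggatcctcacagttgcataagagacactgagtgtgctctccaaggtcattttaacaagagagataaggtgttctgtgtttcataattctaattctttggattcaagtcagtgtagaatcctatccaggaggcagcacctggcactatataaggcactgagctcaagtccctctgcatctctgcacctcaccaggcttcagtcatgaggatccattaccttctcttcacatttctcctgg
Grb14: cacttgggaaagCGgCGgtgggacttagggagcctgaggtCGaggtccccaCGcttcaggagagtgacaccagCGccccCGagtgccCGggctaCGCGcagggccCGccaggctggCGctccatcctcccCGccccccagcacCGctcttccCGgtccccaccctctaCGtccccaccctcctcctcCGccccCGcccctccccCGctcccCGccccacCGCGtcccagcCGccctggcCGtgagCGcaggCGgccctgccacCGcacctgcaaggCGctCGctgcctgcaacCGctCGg

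Promoters were found for 9 of the 10 genes. The Isl1 promoter held 37 CG dinucleotides in 300 bases, a number reached by 7.4% of 21304 promoters of the same length, whose median was 13. Grb14 had 30, which 15.7% of promoters reached, Rnaset2b had 23 (29.3%), Lipt2 had 20 (36.2%), Rassf4 had 15 (47.1%), Dnm3 had 12 (53.1%) and Arid5b had 7 (64.9%). The 2 listed promoters of Asgr1 held 4 and 5, and that of Defb8 held 0. The genes low in HD mutant 1 to 3 thus included both the most CG-rich and the CG-free promoter of the set. No methylation values were analysed here.

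Libraries held 1838824 to 7833087 counts and 12948 to 15510 detected genes, and HD mutant 4 and 5 were the shallowest. Tet3 stood at 50.3 to 202 CPM (counts scaled to a common library size) in the HD mutant and at 44.0 to 204 CPM in the LCD KO. WT ranged from 156 to 428 CPM, which holds HD mutant 2 and 3 at 202 and 193 CPM. The highest was WT 4, the WT library of their batch. In the fit with a batch term, which leaves out HD mutant 4 and 5, Tet3 was low in the HD mutant as in the LCD KO. The HD mutant differed by -0.08 ± 0.30 from the LCD KO and by -1.86 ± 0.33 from WT (log2, SE). LCD KO versus WT gave -1.78 ± 0.21. The libraries labelled Tet3 KO went against their label. Their Tet3 level was 0.60 ± 0.33 (log2, SE) above WT and was not called (a call is an adjusted p below 0.05 over all genes tested), while their Dnmt3a difference from WT was -1.48 ± 0.20 (edgeR's quasi-likelihood test, Benjamini-Hochberg adjusted p = 4.1e-05). The 2 columns of a Tet1, Tet2 and Tet3 mutant (TKO) held the same values as these 2 libraries, so 24 of 26 columns were used. A list of 12 oocyte markers summed to 13296 to 36970 CPM in the HD mutant and to 15868 to 49239 CPM in the other libraries. A list of 9 blood or immune markers summed to 1.12 to 3.92 CPM in the HD mutant and to 0.344 to 4.94 CPM elsewhere. Of these 9, Adgre1, Hbb-b1 and Hba-a1 were at 0 throughout. A list of 9 theca or stroma markers summed to 2.24 to 6.94 CPM in the HD mutant and to 0 to 7.17 CPM elsewhere. A list of 16 granulosa or cumulus cell markers summed to 364 CPM in LCD KO 2 and to 80.4 to 132 CPM in every other library. Levels below are CPM with TMM factors, not corrected for gene length, so they compare libraries and not genes.

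Arid5b, an ARID-domain DNA-binding protein that works with the histone demethylase Phf2, was low in all 5 HD mutant libraries. Its level was 1.42 CPM in HD mutant 1, 9.66 and 14.8 CPM in HD mutant 2 and 3, and 3.73 and 7.83 CPM in HD mutant 4 and 5. The LCD KO libraries ranged over 79.2, 125 and 376 CPM (lowest, median and highest of 7) and the WT libraries over 101, 192 and 205 CPM (lowest, median and highest of 6). All 5 HD mutant libraries lay below every other library of the series, the lowest of which was Dnmt3a KO 1 at 59.8 CPM. LCD KO 4 and 5, of the same batch as HD mutant 1 to 3, were the highest libraries of all at 337 and 376 CPM, so the ratio depends on the libraries used. From pooled counts, HD mutant 1 to 3 were 39.1-fold below LCD KO of batch 2 (95% interval for counting error only 33.8 to 45.4, as in the brackets below) and 12.3-fold below LCD KO of batches 1 and 3 (10.6 to 14.4). HD mutant 4 and 5 were 20.1-fold below LCD KO of batches 1 and 3 (13.2 to 32.2). In RNA from pooled whole oocytes, fewer oocytes that carry a transcript and less of it in each oocyte cannot be told apart.

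Isl1, a LIM homeodomain transcription factor known from motor neurons, heart and pancreas, was rare in every library and lowest in the HD mutant. HD mutant 1 had 0.16 CPM, HD mutant 2 and 3 had 0.15 and 0.50 CPM, and HD mutant 4 and 5 had 0 and 0.56 CPM, which together were 7 counts. The LCD KO ranged over 0.82, 1.36 and 2.07 CPM and WT over 2.75, 4.95 and 6.37 CPM (lowest, median and highest). The HD mutant did not overlap the LCD KO or WT, but it did overlap the DKO, whose libraries were at 0.50 and 0.66 CPM. Over 12002 genes, the HD mutant lay wholly below the LCD KO for 0.592% and wholly above for 0.842%. Against WT these shares were 1.2% and 2.05%. Isl1 was chosen for its HD mutant values, so nothing is read from its place among these. Dnmt3a KO libraries, at 6.56 and 3.65 CPM, and the libraries labelled Tet3 KO, at 4.85 and 4.40 CPM, lay inside or next to the WT range. The ratio of pooled counts placed HD mutant 1 to 3 at 5.97-fold below LCD KO of batch 2 (2.45 to 17.6) and 18.2-fold below WT 4 (7.42 to 53.6). For HD mutant 4 and 5 the count was 1, and the interval against LCD KO of batches 1 and 3 ran from 0.732-fold to 193-fold lower.

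Rhbdf1 encodes iRhom1, an inactive rhomboid protein that escorts the protease ADAM17 to the cell surface. It split the HD mutant group: the level was 0.32 CPM in HD mutant 1 and 3.02 and 3.01 CPM in HD mutant 2 and 3, but 83.9 and 53.7 CPM in HD mutant 4 and 5. The LCD KO ranged over 50.2, 64.7 and 75.7 CPM and WT over 40.8, 78.7 and 115 CPM (lowest, median and highest). HD mutant 1 to 3 lay below every other library, and HD mutant 4 and 5 lay inside the range of the other groups. Pooled counts of HD mutant 1 to 3 were 30.3-fold below LCD KO of batch 2 (22.6 to 41.7), whereas the ratio of HD mutant 4 and 5 to LCD KO of batches 1 and 3 was 1.11 (0.970 to 1.27).

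Grb14, an adaptor that binds and inhibits the insulin receptor, was high in the HD mutant. It stood at 30.1 CPM in HD mutant 1, 25.8 and 14.3 CPM in HD mutant 2 and 3, and 20.04 and 7.83 CPM in HD mutant 4 and 5. The LCD KO ranged over 2.15, 3.28 and 15.6 CPM and WT over 0, 1.84 and 3.44 CPM (lowest, median and highest). Every HD mutant library exceeded every WT library, a separation that 2.05% of 12002 genes showed (1.2% in the other direction). LCD KO 2 was the only library outside the HD mutant above 5.61 CPM. LCD KO 2 was also the library with the high granulosa marker sum, including 293 CPM of Inha, and the part of these cells in its Grb14 level was not tested. Against LCD KO of batch 2, HD mutant 1 to 3 were 8.13-fold higher (6.05 to 11.1), and HD mutant 4 and 5 were 2.70-fold above LCD KO of batches 1 and 3 (1.89 to 3.83).

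Asgr1, the major subunit of the asialoglycoprotein receptor that clears desialylated glycoproteins in the liver, was the other gene that set all 5 HD mutant libraries apart. HD mutant 1 had 10.9 CPM, HD mutant 2 and 3 had 7.70 and 6.90 CPM, and HD mutant 4 and 5 had 3.73 and 5.59 CPM. The LCD KO ranged over 0, 0.24 and 0.81 CPM and WT over 0, 0.42 and 0.93 CPM (lowest, median and highest). The highest library outside the HD mutant was DKO 2 at 1.66 CPM, so the ranges did not overlap. The pooled level of HD mutant 1 to 3 was 14.7-fold above that of LCD KO of batch 2 (7.78 to 31.1), which held 10 counts. Asgr1 passed the filter on low counts only through the HD mutant libraries, and the other 9 genes passed it without them.

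Rassf4, a Ras-association domain protein of a family linked to Hippo signalling, was low in the HD mutant but no lower than in many other libraries. HD mutant 1 had 1.42 CPM, HD mutant 2 and 3 had 0.45 and 0.38 CPM, and HD mutant 4 and 5 had 1.86 and 1.12 CPM. The comparison libraries of batch 2 were high, with 15.6 and 14.4 CPM in LCD KO 4 and 5 and 21.6 CPM in WT 4. Outside batch 2, the LCD KO ranged from 1.82 to 9.35 CPM, above 4 of the 5 HD mutant libraries, and WT ranged from 0 to 2.18 CPM, which holds all 5. The level of HD mutant 1 to 3 was thus 30.1-fold below WT 4 (17.6 to 55.5) but 1.605-fold below WT of batches 1 and 3 (0.764 to 3.42), an interval that includes 1-fold.

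Dnm3, a dynamin, belongs to the GTPases that cut vesicles from membranes. HD mutant 1 and 2 had 0 CPM and HD mutant 3 had 0.13 CPM, 1 count in all, while HD mutant 4 and 5 had 3.73 and 3.92 CPM. The LCD KO ranged over 1.10, 9.35 and 21.4 CPM and WT over 4.997, 8.99 and 36.0 CPM (lowest, median and highest). HD mutant 1 to 3 lay below every other library, HD mutant 4 and 5 lay among LCD KO 1 to 3 of batch 1, and the batch 2 libraries LCD KO 4, LCD KO 5 and WT 4 were the highest of their groups. The count of 1 in HD mutant 1 to 3 against 371 in LCD KO of batch 2 gave a level 443-fold lower, with a counting interval of 79.0 to 17550. HD mutant 4 and 5 were 1.58-fold below LCD KO of batches 1 and 3 (0.910 to 2.94). The gene overlaps antisense genes (2810442N19Rik, with 60 counts over the 24 libraries, and Dnm3os, with 8), and since the strand setting of the counting is not known here, its count may include their reads.

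Lipt2, the mitochondrial octanoyltransferase that starts protein lipoylation, differed in the comparison libraries more than in the HD mutant. It stood at 41.0 CPM in HD mutant 1, 29.7 and 29.6 CPM in HD mutant 2 and 3, and 28.9 and 29.1 CPM in HD mutant 4 and 5. LCD KO 4 and 5 had 3.28 and 3.11 CPM and WT 4 had 1.26 CPM, the lowest values of the series and all from batch 2. All 16 libraries of the other groups in batches 1 and 3 were between 15.2 and 50.3 CPM, a range that holds all 5 HD mutant libraries. Pooled, HD mutant 1 to 3 were therefore 10.4-fold above LCD KO of batch 2 (7.88 to 13.9) and 1.67-fold above LCD KO of batches 1 and 3 (1.46 to 1.92).

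Rnaset2b is a copy of the gene for RNase T2, a ribonuclease of lysosomes. It had 28.1 CPM in HD mutant 1 and 27.6 and 32.2 CPM in HD mutant 2 and 3, against 432 and 281 CPM in HD mutant 4 and 5. The LCD KO ranged over 299, 331 and 1125 CPM and WT over 171, 620 and 1064 CPM (lowest, median and highest). Every other library was above HD mutant 1 to 3, HD mutant 4 and 5 were inside the range of the rest, and the 6 libraries of batch 1 were the highest. From pooled counts HD mutant 1 to 3 were 10.7-fold below LCD KO of batch 2 (9.81 to 11.6) and 5.80-fold below WT 4 (5.24 to 6.43). The row of its near-identical copy Rnaset2a was 0 in all libraries. Whether the Rnaset2b row also holds reads of that copy was not tested.

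Defb8, a beta-defensin, one of the small secreted antimicrobial peptides, had no count in HD mutant 1, 2 or 3. HD mutant 4 and 5 had 14.0 and 6.15 CPM, the LCD KO ranged over 6.55, 13.0 and 17.8 CPM and WT over 10.3, 14.5 and 21.1 CPM (lowest, median and highest). HD mutant 4 and 5 were inside or next to these ranges, and every library other than HD mutant 1 to 3 had 6.01 CPM or more. Taking 3 counts over the 3 libraries as the floor, HD mutant 1 to 3 were at least 56.9-fold lower than LCD KO of batch 2, which held 143 counts, and at least 104-fold lower than WT 4, which held 83. In a list of 21 other beta-defensin genes, 0 passed the filter on low counts.

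**Figure D1:**
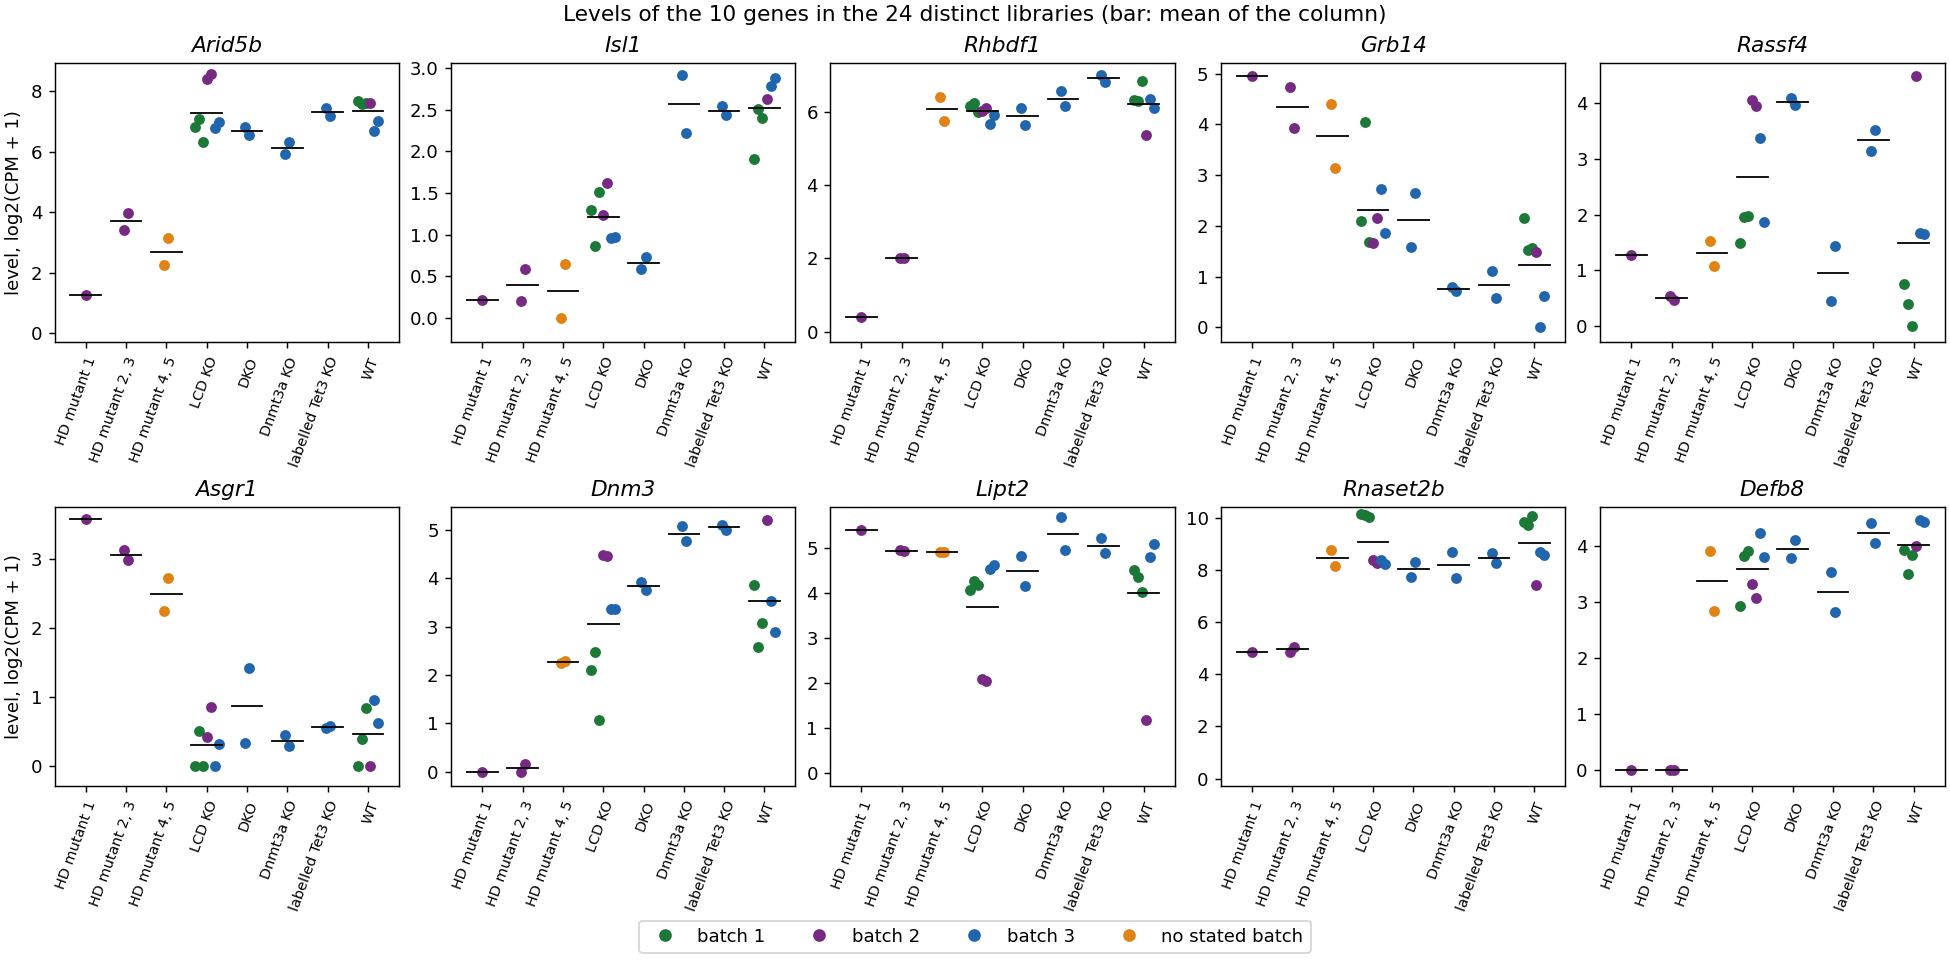
Level of each of the 10 genes as log2(CPM + 1) in HD mutant 1, HD mutant 2 and 3, HD mutant 4 and 5, LCD KO, DKO, Dnmt3a KO, labelled Tet3 KO and WT libraries; each point is 1 library, its colour is the batch and the bar is the mean of the column. Rhbdf1, Dnm3, Rnaset2b and Defb8 are far lower in HD mutant 1 to 3 than in HD mutant 4 and 5, while Arid5b, Isl1, Grb14 and Asgr1 have HD mutant 4 and 5 beside HD mutant 1 to 3.

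The genes therefore showed 3 patterns in the HD mutant, as a description of the values that chose them. Arid5b, Isl1, Grb14 and Asgr1 were displaced in HD mutant 1 to 3 and in HD mutant 4 and 5. Rhbdf1, Dnm3, Rnaset2b and Defb8 were displaced in HD mutant 1 to 3, with HD mutant 4 and 5 far closer to the other groups. The pooled levels of HD mutant 4 and 5 were below those of WT of batches 1 and 3 for these genes. The ratios were 1.18-fold for Rhbdf1 (1.04 to 1.35), 2.21-fold for Dnm3 (1.29 to 4.06), 1.89-fold for Rnaset2b (1.79 to 2.00) and 1.55-fold for Defb8 (1.11 to 2.21). These intervals leave out the spread between libraries and batches. For Rhbdf1, HD mutant 4 at 83.9 CPM was above the WT median of 78.7 CPM. Rnaset2b was also 1.96-fold below the pooled LCD KO of batches 1 and 3 (1.85 to 2.07), but those batches differed. The LCD KO averaged 1082 CPM in batch 1 and 315 CPM in batch 3, and WT averaged 932 and 391 CPM. HD mutant 4 and 5 were at 432 and 281 CPM. For Dnm3, HD mutant 4 and 5 both lay below every WT library. For Rassf4 and Lipt2, all HD mutant libraries were inside the range of the other groups. LCD KO 4 and 5 and WT 4 of batch 2 stood apart from all other libraries for Lipt2. For Rassf4 they were high together with the DKO (16.0 and 14.6 CPM), the libraries labelled Tet3 KO (7.86 and 10.52 CPM) and LCD KO 6 (9.35 CPM). The ranges of HD mutant 1 to 3 and HD mutant 4 and 5 did not overlap for 6 of the 10 genes. Over 12002 genes, HD mutant 1 to 3 lay wholly below HD mutant 4 and 5 for 27.1% and wholly above for 33.7%, so such a split was common. All 5 HD mutant libraries lay below every other library for 12 of the 12002 genes (0.1%), Arid5b among them. They lay above every other library for 22 (0.183%), Asgr1 among them. Both genes were chosen for their HD mutant values, so nothing is read from their place among these. Asgr1 averaged 0.41 CPM outside the HD mutant and is among the 12002 genes only through the HD mutant libraries.

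**Figure D2:**
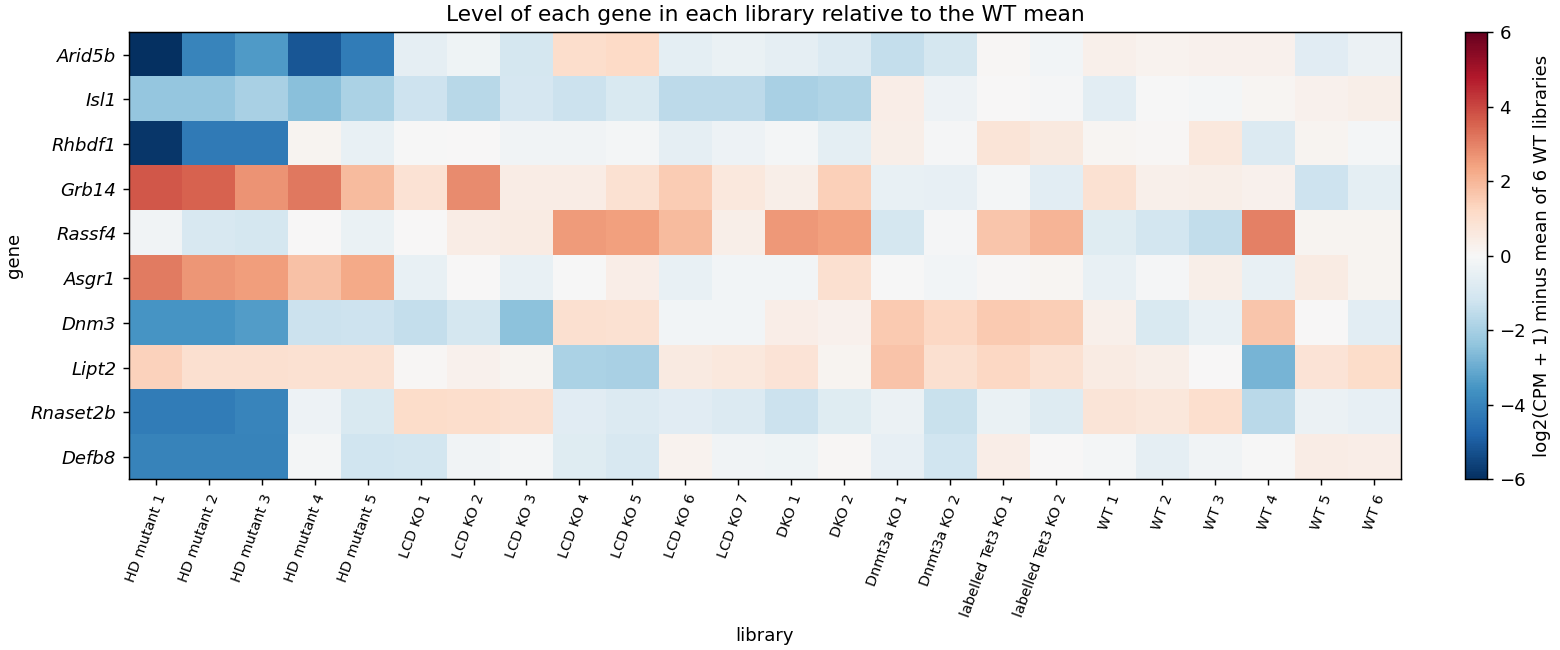
Level of each gene in each of the 24 libraries as log2(CPM + 1) minus the mean of the 6 WT libraries, blue below and red above that mean. The first 3 columns, HD mutant 1 to 3, are dark blue for Arid5b, Rhbdf1, Dnm3, Rnaset2b and Defb8, and the column of WT 4 differs from the other WT columns for Rassf4, Dnm3, Lipt2 and Rnaset2b.

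The fit with a batch term, which for the HD mutant rests on HD mutant 1 to 3, called all 10 genes in HD mutant versus LCD KO, where 2.08% of 11794 tested genes were called. It also called all 10 in HD mutant versus WT, where 7.83% were called. Both comparisons chose the genes and share the HD mutant libraries, so nothing is read from these counts. The fitted log2 differences of HD mutant and LCD KO were -5.05 ± 0.52 for Arid5b, -2.37 ± 0.57 for Isl1, -4.68 ± 0.36 for Rhbdf1, -4.81 ± 0.60 for Rassf4 and -3.22 ± 0.25 for Rnaset2b (SE). They were 2.82 ± 0.57 for Grb14, 4.32 ± 0.67 for Asgr1 and 3.67 ± 0.30 for Lipt2. The largest were -8.14 ± 0.64 for Dnm3 and -8.33 ± 0.67 for Defb8, which held 1 and 0 counts in HD mutant 1 to 3. Without the batch term and with all 5 HD mutant libraries, several were smaller in size. They were -3.42 for Dnm3, -1.83 for Defb8, -1.20 for Rhbdf1, -1.97 for Rnaset2b, 1.15 for Lipt2, -2.94 for Rassf4 and 2.05 for Grb14. The values for Arid5b (-4.55), Isl1 (-2.20) and Asgr1 (4.33) were closer to those with the term.

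**Figure D3:**
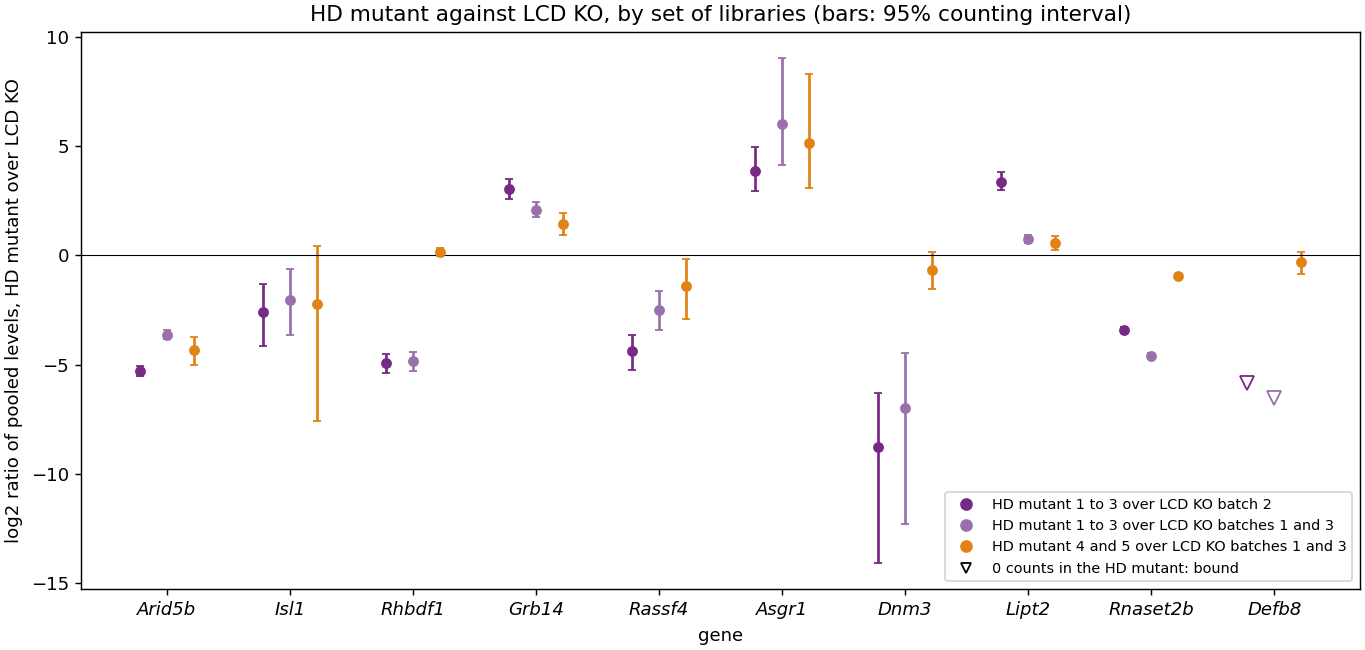
Log2 ratio of pooled levels of the 10 genes, HD mutant over LCD KO, for HD mutant 1 to 3 over LCD KO of batch 2, HD mutant 1 to 3 over LCD KO of batches 1 and 3, and HD mutant 4 and 5 over LCD KO of batches 1 and 3; bars are 95% counting intervals and open triangles are bounds for Defb8, which had 0 counts. The 3 ratios share a sign for every gene but Rhbdf1, whose ratio for HD mutant 4 and 5 was 1.11.

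Comparisons without HD mutant libraries ask whether the same genes responded to loss of the LCD or of Dnmt3a. LCD KO versus WT uses libraries that also served to choose the genes, and 18.3% of all genes tested were called there (8.89% higher, 9.44% lower). Isl1 was lower in the LCD KO (-1.87 ± 0.33 log2, SE, adjusted p = 0.00027 in edgeR's quasi-likelihood test, as for all p-values here), and each of the 7 LCD KO libraries was below each of the 6 WT libraries, a separation seen for 0.783% of 12002 genes (1.49% in the other direction). Within batches it was -1.59 in batch 2 and -2.67 in batch 3, neither called with so few libraries, and batch 1 gave no value because the gene failed the filter there. Grb14 was higher in the LCD KO (1.63 ± 0.49, adjusted p = 0.0216). That call rested on single libraries: without LCD KO 2 it was 1.09 with an adjusted p of 0.114, and without WT 2 it was 1.56 with an adjusted p of 0.0509. Within batch 2 and within batch 3 Grb14 differed by 0.64 and 3.68, neither called, batch 1 again gave no value, and without the batch term the adjusted p was 0.146. Of the other genes edgeR called none: Arid5b differed by -0.24 ± 0.31, Rhbdf1 by -0.19 ± 0.20, Rnaset2b by 0.17 ± 0.16, Lipt2 by -0.10 ± 0.20, Defb8 by -0.44 ± 0.20 and Rassf4 by 0.70 ± 0.41. Within batch 1 alone, Arid5b was called lower in the LCD KO (-0.84, adjusted p = 0.00135), while its values in batches 2 and 3 were 0.89 and 0.02. Asgr1 is not read here or in the comparisons below, because it entered the fit only through the HD mutant libraries and had 12 counts in the LCD KO and 8 in WT. Dnm3 was near the threshold at -0.72 ± 0.26 (adjusted p = 0.0552). It was called by DESeq2 (-0.74, adjusted p = 0.0290), with no filter on low counts (0.0169), in batch 1 alone (-1.52, 0.0247), and without LCD KO 6 (0.0447), LCD KO 7 (0.0367) or WT 6 (0.0200). Rassf4 passed it when WT 4 was left out, at 1.86 with an adjusted p of 0.0107. The labels call the pools biological replicates and do not say whether they came from separate mice, so these p-values measure the spread between pools.

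DKO versus Dnmt3a KO compares oocytes with and without the LCD where both lack Dnmt3a, within batch 3, and holds no library of the comparisons that chose the genes. Isl1 had 0.50 and 0.66 CPM in the DKO, against 6.56 and 3.65 CPM in the Dnmt3a KO. Rassf4 had 16.0 and 14.6 CPM in the DKO, against 0.36 and 1.72 CPM in the Dnmt3a KO. The groups did not overlap for either gene, which with 2 libraries a group was common: the DKO lay wholly below the Dnmt3a KO for 19% of 12002 genes and wholly above for 20.2%. Both were called, as were 1.99% of all genes, and with the filter on low counts the others were not. With no filter, Grb14 and Dnm3 were called as well (edgeR adjusted p = 0.0478 and 0.0498). Isl1 differed by -3.05 ± 0.69 (log2, SE, adjusted p = 0.0176) and Rassf4 by 3.68 ± 0.74 (adjusted p = 0.00797). With 2 libraries a group both calls depended on single libraries. The adjusted p of Isl1 was 0.150 without DKO 1, 0.0884 without DKO 2 and 0.0963 without Dnmt3a KO 1. The adjusted p of Rassf4 was 0.0779 without Dnmt3a KO 1 and 0.0510 without Dnmt3a KO 2. Both genes were called in a fit of batch 3 alone (adjusted p = 0.0362 for Isl1 and 0.00501 for Rassf4), and neither was in the fit without a batch term (0.0973 and 0.680). Rassf4 was thus higher in the DKO, whereas the HD mutant libraries were among the lowest for it. Grb14 had 2.01 and 5.30 CPM in the DKO, against 0.73 and 0.64 CPM in the Dnmt3a KO. With the filter, its difference of 2.34 ± 1.03 was not called (adjusted p = 0.274). Arid5b, at 112 and 92.7 CPM in the DKO and 59.8 and 78.8 CPM in the Dnmt3a KO, was not called either (0.56 ± 0.54).

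DKO versus WT, which shares the DKO libraries with the comparison above, called Isl1 (-3.13 ± 0.66, adjusted p = 0.00548) and Rassf4 (2.36 ± 0.56, adjusted p = 0.0164), where 3.79% of all genes were called. Isl1 missed the threshold without DKO 1 (-2.93, adjusted p = 0.0942), and Rassf4 missed it without DKO 1, DKO 2, WT 5 or WT 6, with adjusted p-values of 0.103, 0.0680, 0.0519 and 0.0773. Without the batch term Rassf4 was at 1.67 and not called (adjusted p = 0.407). With no filter on low counts, Grb14 was called too (1.81, edgeR adjusted p = 0.0376). In Dnmt3a KO versus WT, where 0.755% of genes were called, edgeR called 0 of the 9 genes other than Asgr1 and DESeq2 called Dnm3 and Defb8 (adjusted p = 0.0444 and 0.0143). Unadjusted p-values under 0.05 were those of Defb8 (-1.37 ± 0.35, adjusted p = 0.0626) and Dnm3 (1.33 ± 0.38, adjusted p = 0.102), and Dnm3 passed the threshold without WT 1 (0.0357) and in batch 3 alone (0.00877). With no filter on low counts, edgeR called Arid5b (adjusted p = 0.0256), Dnm3 (0.0060) and Defb8 (0.0169) in Dnmt3a KO versus WT. Dnm3 was higher in the libraries labelled Tet3 KO than in WT (1.45 ± 0.38, adjusted p = 0.0487), at 33.0 and 31.1 CPM, where 1.37% of genes were called. That call lapsed without any of 7 libraries, namely labelled Tet3 KO 1 or 2 and WT 2, 3, 4, 5 or 6, at adjusted p-values of 0.0677 to 0.342, and without the batch term (0.800). Rhbdf1, not called there (0.80 ± 0.30, adjusted p = 0.292), was called with no filter (edgeR adjusted p = 0.0426). Rassf4, not called there (1.61 ± 0.58, adjusted p = 0.243), was called with no filter (0.0171) and without WT 4 (2.34, adjusted p = 0.0215). The difference between the effect of LCD loss without Dnmt3a and with Dnmt3a, tested in the same fit, was called for 0 of these 9 genes and for 0.0678% of all genes by edgeR's test. It was run with that tool only, and unadjusted p-values were under 0.05 for Rassf4 (2.98 ± 0.86, adjusted p = 0.361) and Defb8 (1.29).

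**Figure D4:**
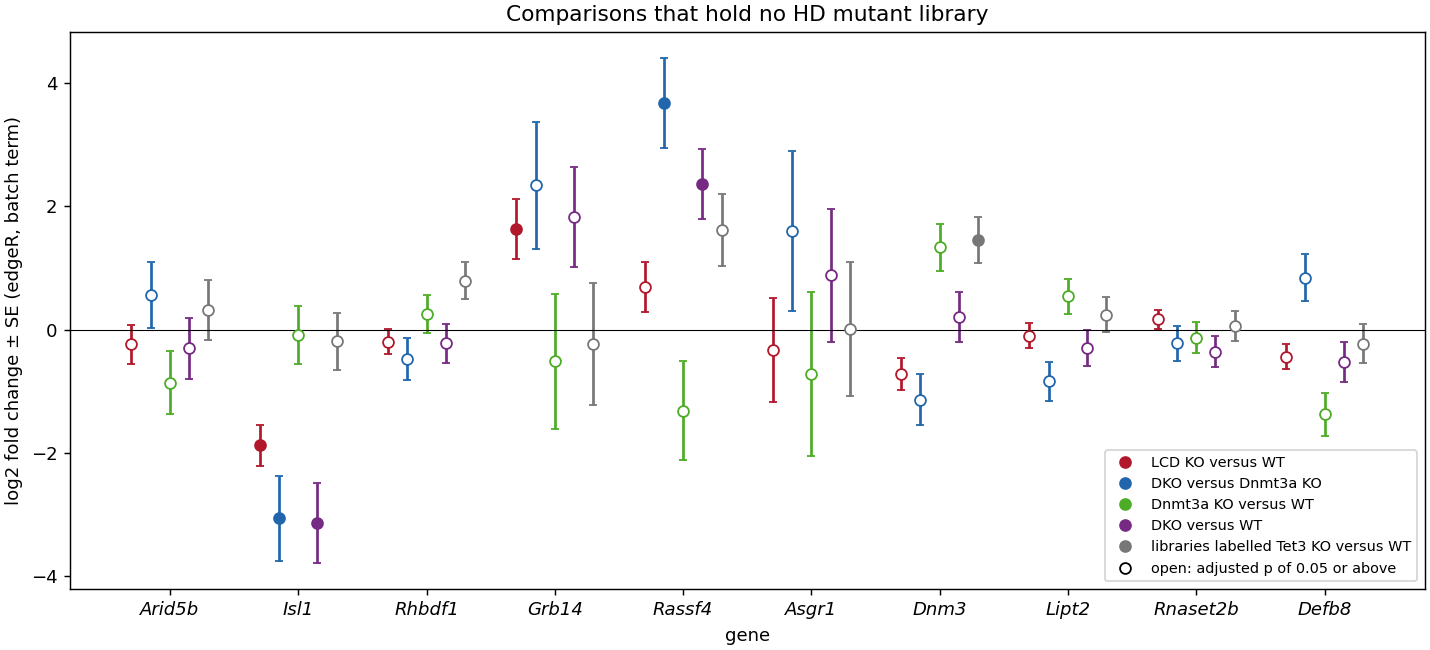
Fitted log2 fold change with its SE for each gene in the 5 comparisons that hold no HD mutant library; filled points had an adjusted p below 0.05. Isl1 is lower in LCD KO versus WT (-1.87), DKO versus Dnmt3a KO (-3.05) and DKO versus WT (-3.13), which share libraries in part, and Arid5b, Rhbdf1, Lipt2, Rnaset2b and Defb8 have no filled point; Asgr1 is drawn but entered the fit only through the HD mutant libraries.

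The genes whose levels were most like each member over the 24 libraries were ranked by Pearson's r of log2(CPM + 1), as a description. Only the LCD KO and WT groups were in every stated batch, so r reflects batch and group alike. For Arid5b the closest were Sspn (r = 0.844), which encodes the dystrophin-associated protein sarcospan, Ankfy1 (0.816) and Coro2b (0.789). For Isl1 they were the potassium channel subunit Kcng3 (0.880), the growth factor Fgf9 (0.861) and the polarity protein Patj (0.825). Fgf9 averaged 4.21 CPM in HD mutant 1 to 3, 2.61 CPM in HD mutant 4 and 5, 4.58 CPM in the LCD KO and 14.5 CPM in WT, so the means of the HD mutant and the LCD KO were all below that of WT. Grb14 was closest to Fabp5 (0.802), a fatty acid binding protein, which averaged 276 CPM in HD mutant 1 to 3, 170 CPM in HD mutant 4 and 5, 134 CPM in the LCD KO and 89.4 CPM in WT. The closest to Asgr1 was Arhgef15 (0.919), a guanine nucleotide exchange factor. Outside the HD mutant it averaged 0.0194 CPM, so it reached the mean of 1 CPM needed for this ranking only through the HD mutant libraries. Its r with Asgr1 therefore rests on the libraries that chose Asgr1, and nothing is read from it. Arhgef15 averaged 9.11 CPM in HD mutant 1 to 3 and 3.59 CPM in HD mutant 4 and 5, and it had no count in any other library but LCD KO 3, which had 0.37 CPM. Next to it came Timm10 (0.825), a chaperone of mitochondrial import, and Klf13 (0.810), a zinc finger factor. Defb8 and Rnaset2b were among the 3 genes closest to Rhbdf1, and Rhbdf1 among the 3 closest to each of them: r was 0.912 between Rhbdf1 and Defb8 and 0.864 between Rhbdf1 and Rnaset2b. The Spearman rank correlation of Rhbdf1 and Defb8 was 0.406, and HD mutant 1 to 3 are the 3 libraries farthest from the rest for both genes. Rassf4 was closest to Olfr206 (0.718), an olfactory receptor, and Lipt2 to Rnf169 (0.814), a ubiquitin ligase.

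Some of these alike genes lay on the chromosome of the member, at varied distance. Of 26 pairs of a member and an alike gene that was no member, 7 were on 1 chromosome. Each member's chromosome held 3.97% to 7.71% of the tested genes. The 7 include all 3 pairs of Dnm3 and the pair of Asgr1 and Arhgef15, ranked only through the HD mutant libraries. Nothing is read from their number. All 3 genes most like Dnm3 were on its chromosome 1, namely Tbx19, Creg1 and Mettl18 (r = 0.918, 0.845 and 0.833), with 20, 28 and 11 tested genes between them and Dnm3 in RefSeq order. Rnf169 had 1 tested gene between it and Lipt2 on chromosome 7, Arhgef15 had 38 between it and Asgr1 on chromosome 11, and Nr1h3 and Myl12a had 100 and 472 between them and Grb14 and Rnaset2b. The genes around each member were also counted, a step added after these values were seen. Among the nearest 20 tested genes on each side, 7 of 40 neighbours of Dnm3 were called in HD mutant versus LCD KO (17.5%), as were 6 of 39 around Rnaset2b (15.4%), 5 of 40 around Lipt2 (12.5%) and 3 of 40 around Rhbdf1 (7.5%). Rassf4 and Asgr1 had 1 of 40 each (2.5%), and Arid5b, Isl1, Grb14 and Defb8 had 0. In all, 23 of 388 neighbours were called (5.93%), against 2.08% of all tested genes. In HD mutant versus WT 46 of 388 were called (11.9%), against 7.83% of all tested genes, and the order of the members differed: Dnm3 had 9 of 40, Lipt2 8, Defb8 6, Grb14 5, Rnaset2b 5 of 39, Rhbdf1 4, Rassf4 3, and Arid5b, Isl1 and Asgr1 2 each. The neighbours share position, so they are not independent, and the counts come from the comparisons that chose the members.

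**Figure D5:**
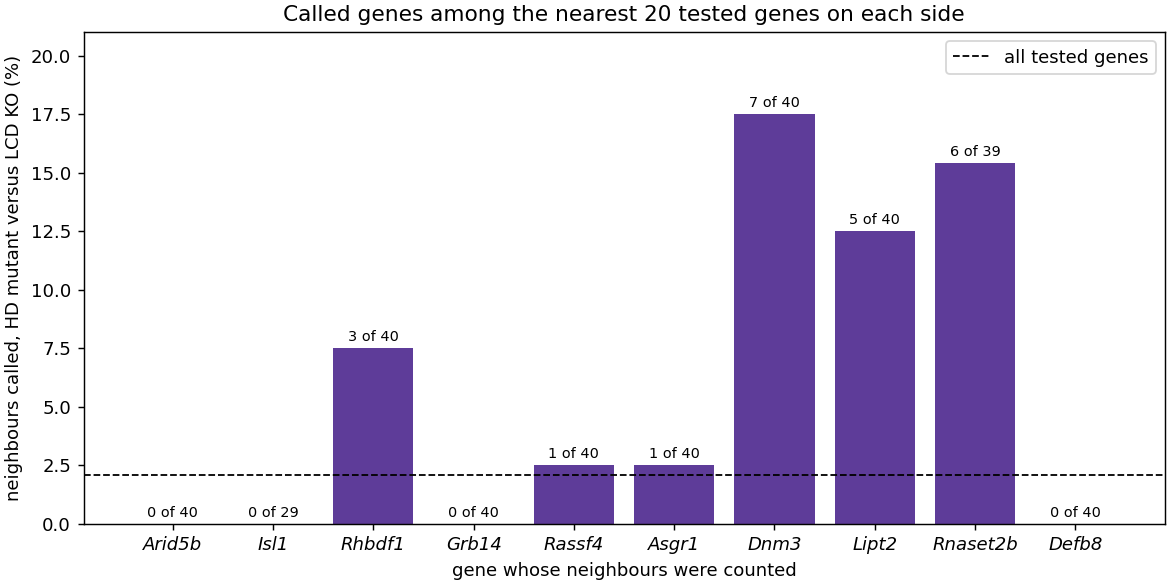
Percent of the nearest 20 tested genes on each side of each of the 10 genes that were called in HD mutant versus LCD KO, with the count above each bar; the dashed line is the 2.08% of all tested genes. Dnm3, Rnaset2b and Lipt2 have bars of 17.5%, 15.4% and 12.5%, and 4 genes have no bar.

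The levels of some of these genes were read beside those of the member. Rnf169, near Lipt2, had 11.5 to 17.8 CPM in the 5 HD mutant libraries, against 1.15 to 1.98 CPM in LCD KO 4, LCD KO 5 and WT 4 and 2.73 to 34.3 CPM in the libraries of batches 1 and 3. As for Lipt2, the batch 2 comparison libraries were the lowest. Prr18, with 5 tested genes between it and Rnaset2b on chromosome 17, had 0 to 2.80 CPM in the HD mutant, against 17.2 to 37.8 CPM in those 3 libraries and 0.728 to 10.9 CPM in batches 1 and 3. Its highest libraries were thus those 3, which were not the highest for Rnaset2b. Rsph3b, a radial spoke gene with 1 tested gene between it and Rnaset2b, had 2.36 to 5.28 CPM in HD mutant 1 to 3 and 29.1 to 34.0 CPM in HD mutant 4 and 5, against 7.37 to 32.8 CPM in all other libraries. It thus split the HD mutant libraries as Rnaset2b did. Clec10a, a C-type lectin gene with 1 tested gene between it and Asgr1, went the other way from Asgr1 in HD mutant 1 to 3, with 24.6 to 37.5 CPM there, 123 to 143 CPM in HD mutant 4 and 5 and 53.3 to 114 CPM elsewhere. Tbx19, a T-box factor beyond the window of Dnm3, had 0.151 to 0.376 CPM in HD mutant 1 to 3 and 1.40 to 2.80 CPM in HD mutant 4 and 5, against 6.44 to 8.27 CPM in LCD KO 4, LCD KO 5 and WT 4 and 0.728 to 11.6 CPM in batches 1 and 3, a range that holds all but HD mutant 1 to 3.

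Gene lists for the families and pathways of the members were read in LCD KO versus WT, where 18.3% of all genes were called, 8.89% higher and 9.44% lower, and the median log2 difference of all genes was -0.02. Of 15 tested ARID-family genes and Phf2, 1 rose and 4 fell, with a median of 0.02. Arid3c rose by 1.32, and Arid1a (-0.87), Arid3b (-0.80), Arid2 (-0.70) and Arid1b (-0.51) fell, of which Arid1a, Arid1b and Arid2 are DNA-binding subunits of SWI/SNF chromatin remodellers. Of 7 LIM homeobox factors and their LDB cofactors (median -0.47), Ldb2 rose by 1.26 and Lmx1a (-1.23) and Isl2 (-0.97), the closest relative of Isl1, fell. Among 11 genes of the rhomboid family, ADAM17 and the EGF receptor system (median -0.30), 0 rose and 2 fell: the receptor Egfr (-0.73) and the ligand Egf (-0.50). In insulin receptor signalling (median -0.21) 0 of 18 rose and 2 fell, the phosphoinositide 3-kinase subunit Pik3r2 (-1.93) and the transcription factor Foxo1 (-0.94).

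Of 16 dynamin and clathrin genes (median 0.03), the adaptor subunits Ap2m1 (0.61) and Ap2s1 (0.42) rose and Ap2a2 (-1.11) and the clathrin heavy chain Cltc (-0.43) fell. In protein lipoylation (median -0.00042), 1 of 17 rose, the lipoylated branched-chain subunit Dbt (1.86), and 1 fell, the mitochondrial malonyltransferase Mcat (-0.56). Of 15 RASSF and Hippo genes (median -0.33) 0 rose and 2 fell, the coactivator Yap1 (-0.77) and Rassf1 (-0.44). The ribonuclease inhibitor Rnh1 rose by 1.62, 1 of 2 tested genes of the ribonuclease list (median 0.64). Of the lectin receptor list (median -0.14), edgeR called 0 of 2 tested genes: Asgr2, the partner subunit of Asgr1, differed by 0.08 ± 0.17 and Clec10a by -0.36 ± 0.15.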

How the data were processed

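RNA-seq libraries of pools of 10 GV oocytes were represented by a deposited table of read counts per gene. Per the submitters' processing notes, the authors used Trim Galore 0.5.0, HISAT2 2.1.0, featureCounts 1.6.4 and the mm9 build; the strand setting and annotation are not given in the sources used here. The 92 ERCC spike-in rows, which held 1 count, were left out.

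Counts as deposited were fitted with edgeR 4.0.16 (R 4.3.3; TMM factors, filterByExpr, robust quasi-likelihood, Benjamini-Hochberg adjustment at 0.05). The model was group plus batch over the 22 distinct libraries with a stated batch and 11794 genes, with 14 residual degrees of freedom. HD mutant 4 and 5, having no stated batch, entered levels, pooled ratios and the fit without a batch term. Pooled ratios compare summed counts and carry exact 95% binomial intervals, which cover counting error only; a floor of 3 counts stands for 0. DESeq2 1.42.0, RLE factors, no filter, no batch term, single batches, a replicate block and leaving out each library were alternatives, and the fit was tested on simulated data. The 10 genes and the gene lists were chosen with earlier results of these data known. Named genes were the 10, the 3 most alike by Pearson's r among genes averaging 1 CPM or more, and up to 4 called genes a list; the neighbours, pooled ratios and the difference between effects were added after the data were seen.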

Additional observations from a re-analysis of the deposited data

Results flagged for a closer look

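A sample far from its group was found in 4 of 30 sets of a gene and a group of 4 or more libraries. Chance gives about 1 in 20 only where the libraries of a group are alike and independent. These groups span batches and the HD mutant values chose the genes, so nothing is read from the number. Grb14 stood at 15.6 CPM in LCD KO 2, and the next LCD KO library had 5.61 CPM. That library also had the highest granulosa marker sum, 364 CPM, and the part of those cells was not tested. Rassf4 stood at 21.6 CPM in WT 4, and the next WT library had 2.18 CPM. Dnm3 stood at 36.0 CPM in WT 4, and the next WT library had 13.4 CPM. WT 4 is the only WT library of batch 2, so its values and its batch cannot be told apart. Lipt2 stood at 41.0 CPM in HD mutant 1, and the next HD mutant library had 29.7 CPM.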

How the results depend on the processing

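The descriptive log2 differences of the 10 genes kept their sign in 159 of 160 alternatives for HD mutant versus LCD KO and in 149 of 150 for HD mutant versus WT. The exceptions were Grb14 with the replicate block, at -2.30 and -0.93. Both comparisons chose the genes, and only the fit without a batch term included HD mutant 4 and 5. Nothing is therefore read from these counts. Over 721 alternatives for the other comparisons of the 10 genes, 31 ended a call, 21 made one, and 47 changed the sign of a value with neither value called. The replicate numbers did not pair the libraries: over 36 pairs with the same number, deviations from the group means correlated at -0.748 to 0.426, and the numbers run across batches. The number of genes called with the block was 35 for HD mutant versus LCD KO (245 without it), 220 for HD mutant versus WT (923), 152 for DKO versus Dnmt3a KO (235), 133 for DKO versus WT (447), 54 for Dnmt3a KO versus WT (89) and 32 for labelled Tet3 KO versus WT (162). The block also ended the calls of Isl1 and Rassf4 in DKO versus WT (edgeR adjusted p = 0.281 and 0.0761) and of Dnm3 in labelled Tet3 KO versus WT (0.692). In the same order of comparisons, with no batch term they were 99, 405, 4, 167, 15 and 47, and LCD KO versus WT had 357 (2162 with the term). With no filter they were 410 for HD mutant versus LCD KO, 449 for DKO versus Dnmt3a KO, 672 for DKO versus WT, 311 for Dnmt3a KO versus WT and 284 for labelled Tet3 KO versus WT. DESeq2 called 378 for DKO versus Dnmt3a KO and 185 for Dnmt3a KO versus WT. Batch 2 only gave 102 for HD mutant versus LCD KO, 40 for HD mutant versus WT and 12 for LCD KO versus WT. Batch 3 only gave 88 for LCD KO versus WT, 54 for Dnmt3a KO versus WT and 179 for DKO versus WT. Leaving out 1 library gave 92 to 277 for HD mutant versus LCD KO, 384 to 1114 for HD mutant versus WT, 1685 to 2309 for LCD KO versus WT, 78 to 115 for DKO versus Dnmt3a KO, 164 to 471 for DKO versus WT, 26 to 116 for Dnmt3a KO versus WT and 55 to 172 for labelled Tet3 KO versus WT. The fit without a batch term used 24 libraries and single batches used fewer; otherwise the cause was not tested. HD mutant 4 and 5 held the fewest counts, so their levels of rare genes such as Isl1 rest on 0 or 1 count.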
